A study of Rattus norvegicus with 6 samples.

Results

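The immediate-early genes Fos, Fosb, Jun, Junb, Egr1, Egr2, Atf3 and Nr4a1 and the MAPK phosphatases Dusp1 and Dusp6 were followed over 6 one-colour Agilent arrays of rat spinal cord. They were chosen by the gene names printed in the scanner files, and Dusp6 was selected on its high level in animals with T cells and NMO-IgG, so its height there is a description and carries no test. They are 10 of the 35378 gene or transcript names on the array and had 10 probes and 28 spots per array, of 41012 probes in all. Jun and Egr1 had 10 spots each and the other genes 1 spot each.

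All arrays came from formalin-fixed, paraffin-embedded spinal cord of adult Lewis rats. ENMO animals had received T cells specific for myelin basic protein (MBP) on day 0 and NMO-IgG, a patient antibody preparation against the astrocyte water channel aquaporin 4 from neuromyelitis optica (NMO), on day 4. EAEcoI animals had received the same T cells and a commercial normal human immunoglobulin as control IgG, and EAEcoP animals the T cells and PBS (EAE, experimental autoimmune encephalomyelitis). Other animals got no T cells, and were given NMO-IgG only or control IgG only, or were healthy controls. Treated animals were killed 24 h after the antibody injection. Each group was 1 pool of sections from several rats, with fewer rats in the healthy control pool, on 1 array, so no spread between animals can be given, and the number of arrays limits the precision. In such bulk samples fewer cells of a type and less RNA per cell cannot be told apart.

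Immediate-early genes are switched on within minutes of a stimulus, without new protein synthesis, by kinase cascades of the MAPK family and by calcium signals acting on factors such as SRF and CREB. Their mRNAs are short-lived. Most encode transcription factors, and the Fos and Jun proteins pair to form AP-1. Dual-specificity (MAPK) phosphatases remove the activating phosphates from MAPKs and are themselves induced by the pathway, so that they close a feedback loop. In spinal cord these genes are best known as marks of recent neuronal or glial activation, and Atf3 and Jun also of nerve injury.

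Levels are given as normalized signal intensity (NSI), the background-corrected spot intensity after quantile normalization of the arrays. Of the 41012 probes, 14451 to 24586 per array were well above background, a mark set by the scanner software. The dimmest such signals lay at an NSI of 5.59 to 11.9, depending on the array, and served as the detection floor for bounds. Repeated spots of 181 probes with 10 spots scattered with an SD (pooled, log2) of 0.471, which gives 0.666, or 1.59-fold, for a difference between single spots on 2 arrays. The 6 arrays were split over 2 slides. Slide 1 carried control IgG only, ENMO and EAEcoP, and slide 2 carried healthy control, EAEcoI and NMO-IgG only. Between 2 arrays of different slides, slide and treatment cannot be told apart. Of the defining markers of spinal cord, 6 to 8 of 8 oligodendrocyte genes per array were well above background, 3 to 8 of 10 neuron genes and 0 to 4 of 7 astrocyte genes.

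A signal well above background was present for 8 of the 10 genes on 1 or more arrays and for 3, Fosb, Jun and Dusp1, on all 6. Egr1 and Egr2, zinc finger transcription factors, were not well above background on any array. Egr1 stood at 3.41 NSI in ENMO, 2.87 in EAEcoI, 2.42 in EAEcoP, 3.71 with NMO-IgG only, 2.71 with control IgG only and 3.14 in healthy control. Egr2 had an NSI of 2.85, 3.28, 6.07, 3.95, 6.69 and 3.17 on the same arrays. No ratio is given for either gene, and a change below the detection floor could not be seen.

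**Figure D1:**
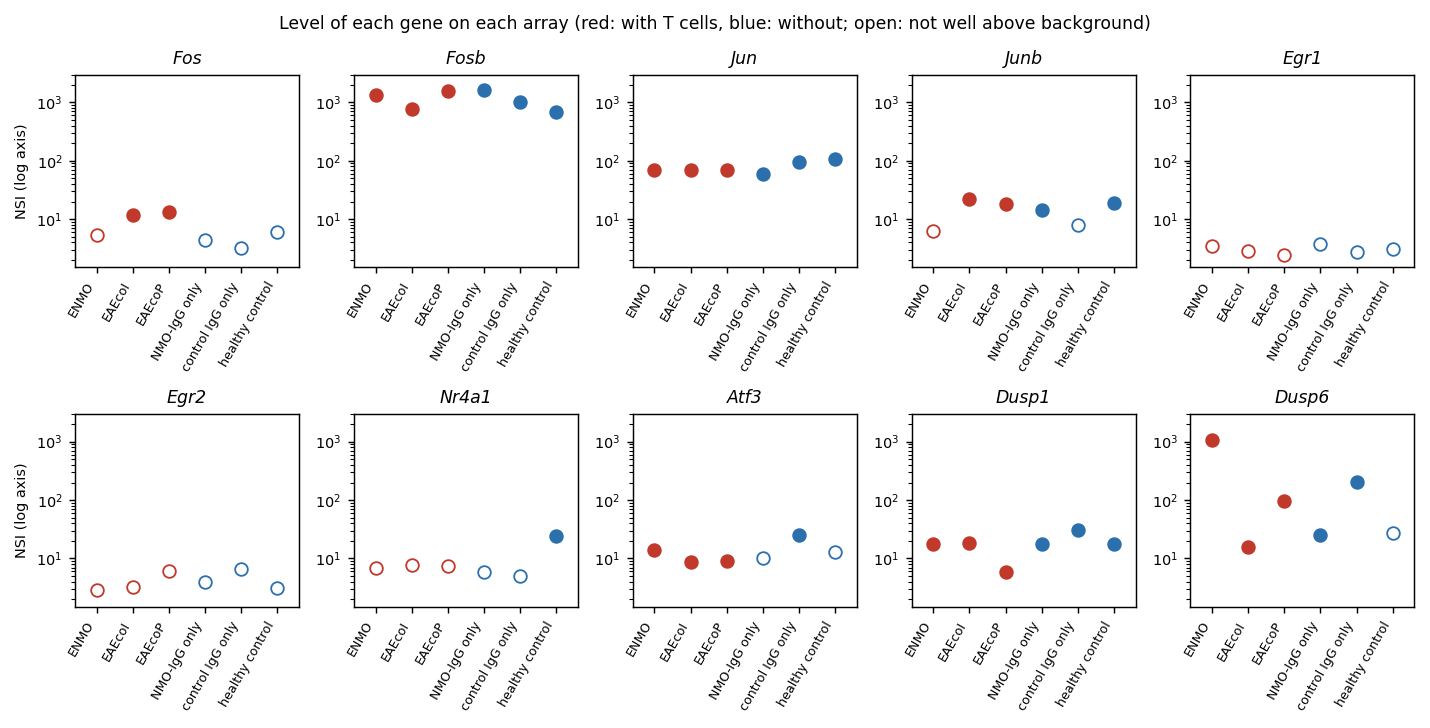
NSI of the 10 genes on a log axis, 1 panel per gene and 1 point per array, red with T cells and blue without, filled where the probe was well above background. Dusp6 spans 15.6 to 1081, while Egr1 and Egr2 are open on all 6 arrays.

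Fos and Fosb encode partners of Jun in AP-1. The Fos probe was well above background only on both EAE arrays. Its NSI was 5.28 in ENMO, 11.6 in EAEcoI and 13.5 in EAEcoP, against 4.36 with NMO-IgG only, 3.19 with control IgG only and 5.97 in healthy control. The measured values of both EAE arrays were the highest, and no order is given among the others. That of EAEcoI lay under the detection floor of the NMO-IgG only array (11.9), so these 2 arrays have no settled order. With the floor in place of the dim values, Fos was at least 1.09-fold higher in EAE than on the arrays without T cells. In ENMO it was at least 1.42-fold lower than in EAEcoI and at least 1.65-fold lower than in EAEcoP. The measured log2 ratios of ENMO were -1.14 and -1.36, with an SD of 0.713 expected from spots of that brightness.

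The sequences below are those of the 4 probes that were taken to lie in coding sequence. They show what was bound on the array, and capitals mark a stop codon that closes the reading frame of the Junb probe.

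Fos: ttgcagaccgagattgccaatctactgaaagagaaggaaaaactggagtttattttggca
Fosb: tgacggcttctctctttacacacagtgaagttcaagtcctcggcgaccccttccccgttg
Junb: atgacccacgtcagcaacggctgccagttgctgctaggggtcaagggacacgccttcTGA
Dusp1: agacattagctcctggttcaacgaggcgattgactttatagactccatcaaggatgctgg

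Each of these probes is 60 bases long, and in each at least 1 reading frame was free of stop codons up to that point. Levels of different probes were not compared with each other.

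Fosb was bright on every array. Its NSI was 1332 in ENMO, 776 in EAEcoI, 1561 in EAEcoP, 1599 with NMO-IgG only, 1030 with control IgG only and 693 in healthy control. The groups with and without T cells overlapped, and the widest gap, NMO-IgG only over healthy control, was 2.31-fold. Both NMO-IgG arrays lay above the matching control IgG arrays, by 1.72-fold with T cells and by 1.55-fold without. On the log2 scale these differences were 0.78 and 0.63, with SDs of 0.557 and 0.520 expected from spots alone.

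Jun, the AP-1 subunit that is also induced in injured neurons, was the best measured gene of the set because of its 10 spots. It measured 68.9 NSI in ENMO, 70.3 in EAEcoI and 68.3 in EAEcoP. Without T cells it was 60.45 with NMO-IgG only, 94.7 with control IgG only and 105 in healthy control. The arrays with T cells were within 1.03-fold of each other, whereas those without spanned 1.74-fold. With NMO-IgG only, Jun was 1.57-fold lower than with control IgG only (log2 ratio -0.65, with 0.226 expected from spots) and 1.74-fold lower than in healthy control. ENMO and EAEcoI differed by a log2 ratio of -0.03, with 0.226 expected from spots. All these differences rest on 1 pool per group.

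**Figure D2:**
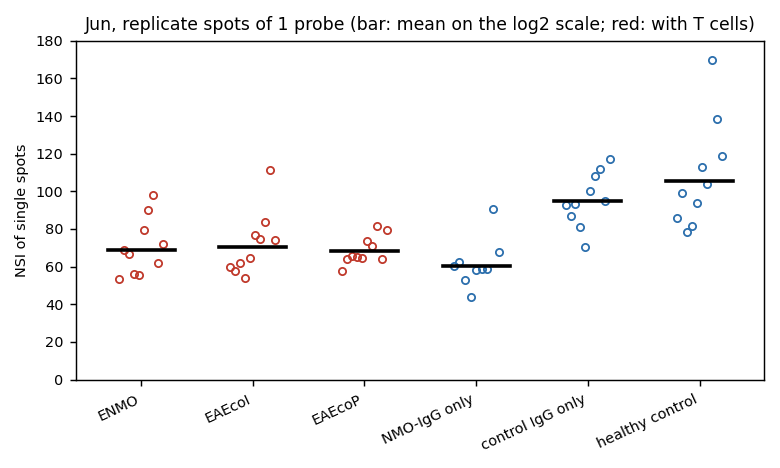
NSI of the single Jun spots on each array (linear axis, 10 spots, or 9 with NMO-IgG only where 1 spot was marked as an outlier), with a bar at the mean on the log2 scale. The spots of the arrays with T cells centre on 68.3 to 70.3, those with NMO-IgG only on 60.45 and those of healthy control on 105.

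Junb, a Jun family member that acts in T cell and myeloid differentiation, was not well above background in ENMO and with control IgG only. Its NSI was 6.35 in ENMO, 21.9 in EAEcoI, 18.1 in EAEcoP, 14.4 with NMO-IgG only, 7.88 with control IgG only and 18.8 in healthy control. No order is given between ENMO and control IgG only. Junb was at least 2.68-fold lower in ENMO than in EAEcoI and at least 2.21-fold lower than in EAEcoP. Without T cells the antibody comparison ran the other way, with Junb at least 1.25-fold higher with NMO-IgG only than with control IgG only. That log2 ratio was 0.87 as measured, with 0.713 expected from spots. Both arrays on which Junb was not well above background lay on slide 1, and its mean log2 difference of slide 1 over slide 2 was -0.91.

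Nr4a1, an orphan nuclear receptor induced by activation of T cells, myeloid cells and neurons, was well above background on 1 array. Its NSI was 24.3 in healthy control. It was 7.0 in ENMO, 7.84 in EAEcoI, 7.54 in EAEcoP, 5.93 with NMO-IgG only and 4.96 with control IgG only, none of them well above background. Healthy control was at least 2.11-fold higher than control IgG only, at least 2.04-fold higher than NMO-IgG only and at least 3.23-fold higher than EAEcoP.

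Atf3 is a stress-induced transcription factor and a marker of injured neurons. In ENMO its NSI was 13.8, in EAEcoI 8.70, in EAEcoP 9.08 and with control IgG only 25.6. It was 10.2 with NMO-IgG only and 12.8 in healthy control, where it was not well above background. The control IgG only array was the highest, at least 2.15-fold above NMO-IgG only and at least 2.01-fold above healthy control. ENMO exceeded EAEcoI and EAEcoP by 1.59-fold and 1.52-fold, log2 differences of 0.67 and 0.61 that were under the SD of 0.713 expected from spots. With T cells and control IgG (EAEcoI), Atf3 was 2.94-fold lower than with control IgG alone.

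Dusp1 is a nuclear phosphatase that inactivates stress-activated MAPKs. In ENMO its NSI was 18.0, in EAEcoI 18.4 and in EAEcoP 5.92, and it was 17.4 with NMO-IgG only, 31.3 with control IgG only and 17.7 in healthy control. EAEcoP stood below and control IgG only above, and the other 4 arrays lay between 17.4 and 18.4. Dusp1 was 3.11-fold higher in EAEcoI than in EAEcoP and 3.04-fold higher in ENMO than in EAEcoP. Spots within 5 rows and columns of the Dusp1 spot deviated from the mean over arrays by -0.95 (log2, median) on EAEcoP and by 0.66 on control IgG only, before normalization. The medians of this local deviation over the whole arrays were -0.74 and 0.38. With the local trend removed, the log2 ratio for T cells (all T over all non-T) was -0.75, against -0.77 without that step. Dusp1 was at a log2 ratio of -1.60 for T over non-T within slide 1 and at 0.07 within slide 2.

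Dusp6, a cytoplasmic phosphatase specific for ERK and a known target of ERK signalling, varied most. In ENMO its NSI was 1081, in EAEcoI 15.6 and in EAEcoP 98.4. It was 25.2 with NMO-IgG only and 201 with control IgG only, and 27.0 in healthy control, where it was not well above background. ENMO was 69.2-fold above EAEcoI, 10.99-fold above EAEcoP and 42.8-fold above NMO-IgG only. Control IgG only came next, 2.04-fold above EAEcoP, 7.94-fold above NMO-IgG only and at least 7.42-fold above healthy control. NMO-IgG only lay 1.62-fold above EAEcoI, a log2 difference of 0.69 that was under the 0.713 expected from spots, and no order is given between NMO-IgG only and healthy control. Among 27108 probes tested, 16 had a ratio of ENMO over EAE as high as that of Dusp6 or higher (log2 ratio 4.78). Dusp6 was chosen by this value.

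The order of the Dusp6 levels followed the slides. All 3 arrays of slide 1 (98.4 to 1081) lay above all 3 of slide 2 (15.6 to 27.0), a mean log2 difference of 3.66. Of the 8 genes tested, Dusp6 was the 1 that did so, and 7.87% of all probes were higher on every array of slide 1. A further 7.86% were lower on every array of slide 1, among them 0 of these genes. The comparison was added after the values were seen. Of the 2 ratios to EAE, that to EAEcoI runs across slides, and the ratio of 10.99 to EAEcoP lies within slide 1. Within slide 1, all T over non-T was 0.70 (log2), and within slide 2 it was -0.74. The Dusp6 spot lay 1 row below and 5 columns beside the Fos spot, and the local deviation around it was 0.14 (log2) on ENMO, -0.25 on EAEcoI and -1.0 on EAEcoP. Removing this trend left a log2 ratio of 4.57 for ENMO over EAE. The scanner software gave the ENMO spot a processed signal of 1024 with an error of 103.

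The genes whose log2 NSI followed Dusp6 most closely over the 6 arrays, among 8449 probes that were well above background throughout and varied, were Klf6 (Pearson r = 0.98), Srms (0.96), Mrpl19 (0.95), Ell (0.94) and Slc3a2 (0.94). Except for Slc3a2, each was higher on all 3 arrays of slide 1 than on all 3 of slide 2, and with 6 points these values only rank the genes. Klf6, a zinc finger factor that is itself an immediate-early gene, reached 653 NSI in ENMO. It had 103 in EAEcoI, 240 in EAEcoP, 92.6 with NMO-IgG only, 408 with control IgG only and 100.3 in healthy control. Its mean log2 difference between slides was 2.02. Within slide 1 its log2 ratio of T over non-T was -0.04, and within slide 2 it was 0.10.

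**Figure D3:**
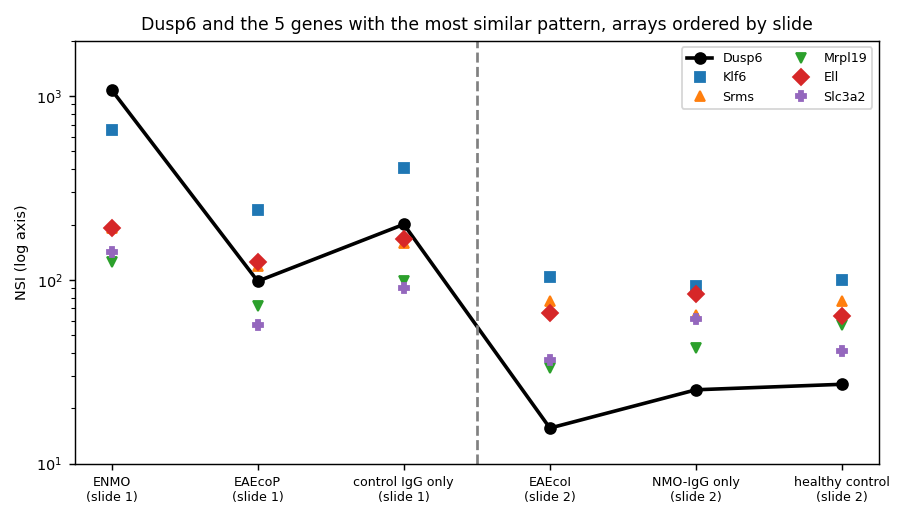
NSI (log axis) of Dusp6 (black line) and of the 5 genes most similar to it, with the arrays ordered by slide. Dusp6 lies between 98.4 and 1081 on slide 1 and between 15.6 and 27.0 on slide 2, and Klf6 between 240 and 653 and between 92.6 and 103.

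The RefSeq promoter table for the build GRCr8 held 7 of the 10 genes. Shown are the 250 bases upstream of the start of Dusp6 and of Klf6, which had the most similar levels, and of Dusp1, the other phosphatase. Capitals mark matches on either strand to the CArG box (the SRF site), to TGACGTCA (the CREB site), to TGANTCA (an AP-1 site), to CACGTG (an E-box) or to CCAAT. The windows are chr7:35979354-35979603 (plus strand) for Dusp6, chr17:69458479-69458728 (minus strand) for Klf6 and chr10:17184603-17184852 (plus strand) for Dusp1.

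Dusp6: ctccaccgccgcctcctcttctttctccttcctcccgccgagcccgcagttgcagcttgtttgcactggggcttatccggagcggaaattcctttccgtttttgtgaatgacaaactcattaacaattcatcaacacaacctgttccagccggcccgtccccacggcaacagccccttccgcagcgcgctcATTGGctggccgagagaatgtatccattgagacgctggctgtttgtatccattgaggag
Klf6: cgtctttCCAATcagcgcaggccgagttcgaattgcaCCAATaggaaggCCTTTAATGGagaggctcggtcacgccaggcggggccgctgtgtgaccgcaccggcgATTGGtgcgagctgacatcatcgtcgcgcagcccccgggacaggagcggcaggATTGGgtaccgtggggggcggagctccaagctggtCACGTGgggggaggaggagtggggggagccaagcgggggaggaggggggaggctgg
Dusp1: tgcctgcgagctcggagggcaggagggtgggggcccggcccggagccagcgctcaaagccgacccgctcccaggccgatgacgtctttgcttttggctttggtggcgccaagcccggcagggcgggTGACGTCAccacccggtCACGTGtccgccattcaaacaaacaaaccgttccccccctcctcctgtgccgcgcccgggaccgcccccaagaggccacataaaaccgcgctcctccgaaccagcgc

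The Dusp6 window held 1 CCAAT, 59 bases before the start, and none of the other 4 motifs. The Klf6 window held a CArG box 201 bases and a CACGTG 56 bases before the start, and 4 CCAAT. The Dusp1 window held TGACGTCA 124 bases and CACGTG 107 bases before the start. Egr1 had 2 CArG boxes and 1 CCAAT, Egr2 a CArG box and a CCAAT, and Junb a CCAAT, whereas the windows of Fosb and Nr4a1 held no match. Of all 33469 promoters, 1.5% held a CArG box, 1.59% TGACGTCA, 6.34% TGANTCA, 5.59% CACGTG and 34.0% CCAAT in the same window. A match is a description of the sequence, and no factor binding was measured.

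Comparing the 3 arrays with T cells to the 3 without, none of the 8 genes tested had groups that did not overlap. Across all probes 11.3% were higher and 6.79% lower on every array with T cells. The 8 genes had a median log2 ratio (all T over all non-T) of -0.09, and all probes one of 0.01. Fos had a log2 ratio of 1.11 with an SE of 0.57 in limma (unadjusted p = 0.0835, adjusted p = 0.484). It was well above background only on both EAE arrays, so it entered the test through the side where it was high. The ratio uses values below background, and no bound could be given for it, so the p-value is no support for a difference. Nr4a1 entered through healthy control alone. The other 6 genes tested with limma, Fosb, Jun, Junb, Atf3, Dusp1 and Nr4a1, had adjusted p-values from 0.634 to 0.969. In this fit limma called 0 of 27268 probes (0.0%), with 3143 at an unadjusted p under 0.05, so the fit called no gene of any kind. Without the ENMO array it called 213 probes, of which 204 were higher with T cells. None of the 7 genes tested was among them. In that setting measured Fos values were higher on both remaining arrays with T cells than on all arrays without, and those of Atf3 lower. Measured Fos values were likewise apart without the healthy control array, though ENMO and the remaining arrays without T cells were below background. Given the floor of the NMO-IgG only array (11.9), Fos in EAEcoI and Atf3 on both EAE arrays have no settled order with it. Jun was lower on every array with T cells once NMO-IgG only was left out. Dusp6 had a log2 ratio of 1.20 with ENMO and -0.39 without it. Over the same arrays, 4 of 8 microglia and macrophage markers (Aif1, Itgam, Cd14 and Lyz2) had higher measured values on every array with T cells. None had lower ones. The list's median NSI was 65.1 to 86.2 with and 21.7 to 31.0 without T cells. The list's summed NSI, 3781 to 15432 with and 2086 to 3638 without, was mostly that of Tyrobp (2516 to 14041 and 1247 to 2653). Lower on every array with T cells were 2 of 8 oligodendrocyte markers (Mog and Mobp), 2 of 6 endothelial markers (Pecam1 and Tek), the astrocyte marker Gja1 and the neutrophil marker S100a8, while S100a9, of neutrophils, and Acta1, of skeletal muscle, were higher. No marker of neurons, T cells or Schwann cells and meninges did either. Gja1 and S100a8 were well above background only with NMO-IgG only, and S100a9 only on both EAE arrays. Aif1, Itgam, Lyz2 and Acta1 were well above background only on arrays with T cells, Itgam on EAEcoP alone. Itgam with T cells (3.99 to 10.2) and Cd14 in EAEcoI (10.3) and EAEcoP (11.2) lay under the floor of the NMO-IgG only array (11.9). These values have no settled order with that array. The part of these cells in the levels above was not tested.

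**Figure D4:**
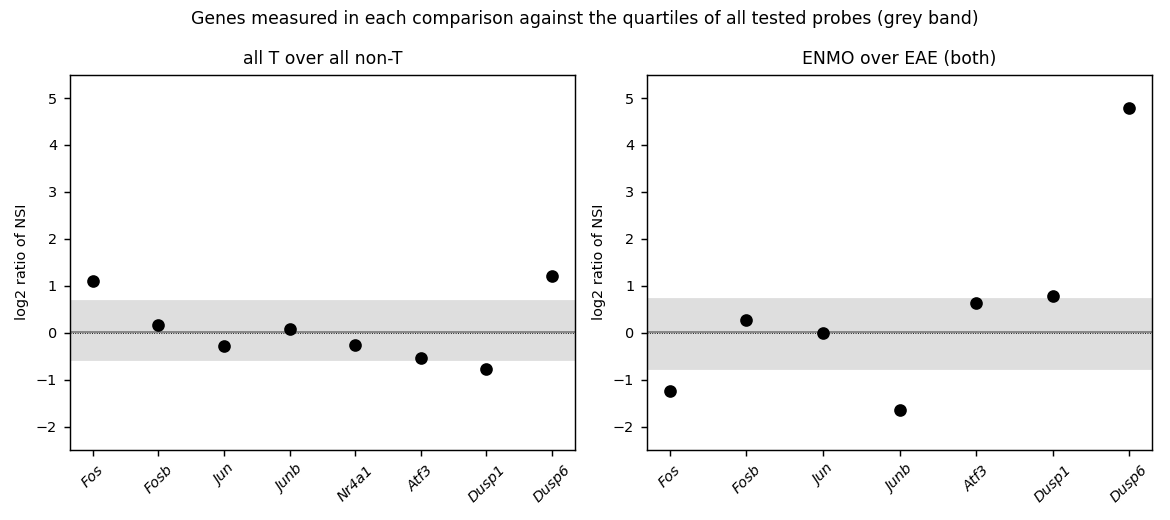
Log2 ratio of NSI for all T over all non-T (left, 8 genes) and for ENMO over both EAE arrays (right, 7 genes), as measured. The grey band spans the quartiles of all tested probes, -0.57 to 0.68 and -0.77 to 0.72. Dusp6, selected for its value in the right panel, lies at 4.78, and Fos and Junb lie below the band at -1.25 and -1.65.

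Against both EAE arrays, ENMO was past 2-fold higher for 1 of 7 genes, Dusp6, where 6.5% of all probes were. Dusp6 was chosen for its height in ENMO, so this count is no result. Past 2-fold lower were 2 of 7, Fos and Junb, where 7.66% of all probes were. Neither was well above background in ENMO, so both entered the comparison through the EAE arrays, where they were high. The bound for Fos did not reach 2-fold. The median log2 ratio was 0.28 for the 7 genes, the selected Dusp6 included, and 0.02 for all probes. The comparison shares the 3 arrays with T cells with the previous one. With normexp or no background correction neither Fos nor Junb was past 2-fold (log2 ratios of -0.16 and -0.36 for Fos, -0.28 and -0.62 for Junb), whereas Dusp6 was, at 2.60 and 3.03. Beside these genes, 2 of 8 microglia and macrophage markers (Tyrobp and Cd68) and 1 of 3 T cell markers (Cd3d) were past 2-fold higher in ENMO, and 2 of 8 neuron markers (Slc17a6 and Nefh) lower. The summed NSI of microglia and macrophage markers was 15432 in ENMO and 3781 to 5455 in EAE, of which Tyrobp made up 14041 and 2516 to 4633. The sum for T cell markers was 2471 and 913 to 1003, of which Cd3d made up 2348 and 872 to 924. The lists' median NSI differed less, at 86.2 in ENMO against 65.1 to 67.9 in EAE for the first list and 7.54 against 5.48 to 7.12 for T cell markers. Their part was not tested.

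NMO-IgG without T cells was compared with control IgG without T cells, on arrays of different slides. Past 2-fold, 0 of 6 genes were higher with NMO-IgG, against 16.6% of all probes. Atf3 and Dusp6 were lower (2 of 6, against 14.0%). Atf3 was not well above background with NMO-IgG only, so it entered through the array where it was high. In the fit with T cells and antibody as terms, limma called 0 of 27268 probes for NMO-IgG against control IgG (0.0%), with 359 at an unadjusted p under 0.05. Within that fit, Fosb had a log2 ratio of 0.71 with an SE of 0.79 (unadjusted p = 0.394, adjusted p = 1.0).

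**Figure D5:**
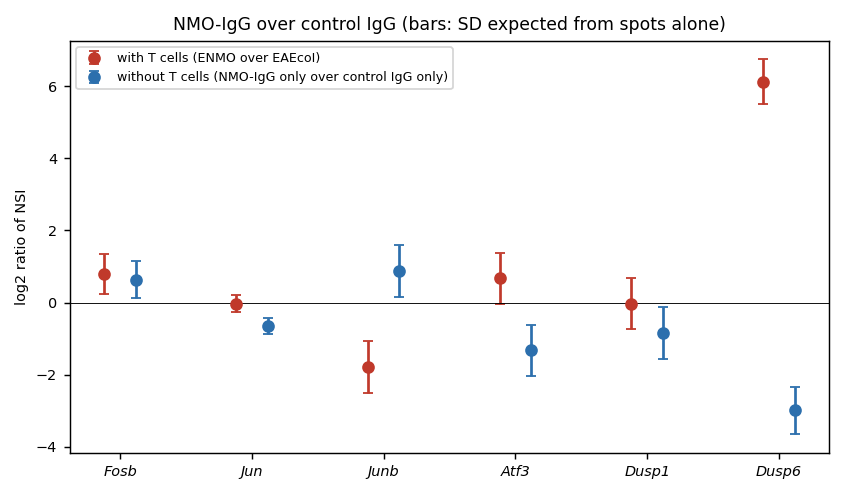
Log2 ratio of NSI, as measured, for NMO-IgG over control IgG, with T cells (red, ENMO over EAEcoI) and without (blue, NMO-IgG only over control IgG only). Shown are the 6 genes well above background on at least 1 array of each pair. Junb was not well above background in ENMO and with control IgG only, nor was Atf3 with NMO-IgG only. Bars are the SD expected from spots alone. Dusp6 stands at 6.11 and -2.99, Junb at -1.79 and 0.87 and Fosb at 0.78 and 0.63.

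Between EAEcoI and EAEcoP, which differ in control IgG against PBS and lie on different slides, 1 of 7 genes, Dusp1, was past 2-fold higher in EAEcoI and 2 of 7, Fosb and Dusp6, were lower. Of all probes, 25.9% were higher and 26.2% lower. Fosb was 2.01-fold and Dusp6 6.30-fold lower in EAEcoI. Control IgG only and healthy control also lay on different slides. Past 2-fold, Atf3 and Dusp6 were higher with control IgG (2 of 7, against 12.8% of all probes), and Junb and Nr4a1 lower (2 of 7, against 16.1%). Each of these genes was well above background on the higher array alone. The bound for Junb, 1.63-fold, did not reach 2-fold. Slide and treatment cannot be told apart in these comparisons or in that of NMO-IgG only with control IgG only.

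Of the 31 other immediate-early genes listed for comparison, 20 could be tested for T cells and 0 had groups that did not overlap. Of all probes, 11.3% were higher and 6.79% lower on every array with T cells. In ENMO, 3 of 21 were past 2-fold higher than in both EAE arrays, against 6.5% of all probes, and 0 lower, against 7.66%. The median log2 ratio was 0.64, and 0.02 for all probes. Egr3, a zinc finger relative of Egr1, lay at 422 NSI in ENMO against 125 in EAEcoI and 61.6 in EAEcoP. It was 221 with NMO-IgG only and 186 with control IgG only, with no value for healthy control. Arc, which regulates synaptic AMPA receptors, lay at 203 NSI in ENMO against 57.7 in EAEcoI and 98.8 in EAEcoP, but 175 to 303 without T cells. Klf6 is described above.

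Of 9 other MAPK phosphatases, 8 could be tested. Dusp9, a cytoplasmic ERK phosphatase, was the 1 gene of 8 that did not overlap, where 11.3% of all probes were higher with T cells. Its NSI was 65.8 to 68.4 with and 46.3 to 63.2 without T cells. The gap from 63.2 to 65.8 lay within the SD of 1.64-fold expected between single spots of that brightness. None of the 8 was past 2-fold in ENMO against both EAE arrays, with a median log2 ratio of 0.19. Between NMO-IgG only and control IgG only, arrays of different slides, 2 of 7 were past 2-fold lower with NMO-IgG, against 14.0% of all probes. These were Dusp4 and Dusp5, which are nuclear and also induced by ERK (5.94 against 19.3, and 15.5 against 41.1). Neither was well above background with NMO-IgG only, and with the floor of that array (11.9) in place of its value Dusp4 did not reach 2-fold. Dusp9, Dusp4 and Dusp5 fell outside the rule for named genes and were chosen after their values were seen.

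Of the MAPK cascade genes, 18 could be tested. Measured values of 3 were higher and of 1 lower on every array with T cells, against 11.3% and 6.79% of all probes. Hras, a GTPase upstream of the cascade, had an NSI of 752 to 3306 with T cells and 109 to 216 without, on the brightest of 3 probes. Mapk10, a JNK kinase expressed in neurons, measured 11.7 to 66.6 with T cells and 3.09 to 4.66 without, where it was not well above background on any array. Map2k7, an activator of JNK, measured 8.20 to 17.2 with and 3.48 to 7.75 without T cells, and was well above background in EAEcoI and EAEcoP alone. Its values in ENMO and EAEcoI, and that of Mapk10 in ENMO, lay under the highest detection floor of the arrays without T cells (11.9), so that they have no settled order with those arrays. Map2k1, the kinase that activates ERK, was lower on every array with T cells (23.5 to 43.2 against 63.0 to 82.7). In ENMO, Map2k3 (3627 against 270 to 807), Rps6ka1 (2632 against 327 to 995) and Mapk8 (52.8 against 20.4 to 21.0) were past 2-fold above both EAE arrays. These were 3 of 18, against 6.5% of all probes. Hras was past 2-fold below both EAE arrays, as were 7.66% of all probes. Without T cells Map2k3 measured 1353 to 1968, Rps6ka1 632 to 1596 and Mapk8 29.8 to 87.1. The median log2 ratio of ENMO over EAE was -0.34.

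Of 10 further genes of ERK output and feedback, Spry2 and Spred1, inhibitors of the cascade, measured 5.89 to 8.92 and 3.75 to 6.27 with T cells and 3.43 to 5.53 and 1.83 to 2.79 without. They were well above background on 2 arrays and 1 array, and all values lay under the detection floors of the arrays without T cells (10.99 to 11.9), so no order is given. Etv1, an ETS factor downstream of ERK, was lower on every array with T cells (26.7 to 45.01 against 78.9 to 173). It was 1 of 10 genes, against 6.79% of all probes. Ccnd1, which encodes cyclin D and is an ERK target, lay at 69.8 NSI in ENMO, 18.5 in EAEcoI and 5.24 in EAEcoP, where it was not well above background. It was the 1 gene of 10 past 2-fold above both EAE arrays, against 6.5% of all probes. Without T cells Ccnd1 lay at 20.6 with NMO-IgG only (not well above background), 110 with control IgG only and 65.8 in healthy control. None of 7 genes for SRF and CREB factors differed by either rule. Of 7 heat shock genes, 1 was past 2-fold lower in ENMO than in both EAE arrays, against 7.66% of all probes. This was Hsp90aa1 (7.65, not well above background, against 42.8 and 47.0). It entered the comparison through the EAE arrays, where it was high. None of the 7 had groups that did not overlap between arrays with and without T cells.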

How the data were processed

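The arrays were read from the scanner tables of 45018 spots per array, made with Feature Extraction 10.1.1.1 per the file headers. The authors deposited spot intensity values on a linear scale, background-corrected by that software and not normalized between arrays, and a table of 1 intensity per target, which equalled the spot value for targets with 1 spot. After removal of outlier spots, a probe's log2 values were averaged and the arrays were quantile-normalized, as named in the study's methods, with limma 3.58.1 in R 4.3.3. Probes well above background on at least 1 of the arrays compared were tested. Genes of the comparison lists with more than 1 probe were represented by the brightest, and their other probes are not given. Hras, Mapk8 and Etv1, for example, had 3 probes each. Where a side was below background on all its arrays, its higher value of floor and signal gave a bound. The limma fits used log2 NSI and Benjamini-Hochberg adjustment over all tested probes at a threshold of 0.05, and were tested on simulated data. Their p-values measure the spread between arrays that got different treatments. Members and lists were chosen with earlier results of these data known. All 10 genes were named, and from each comparison list at most 5 genes per comparison that were past 2-fold in ENMO against both EAE arrays, or past 2-fold and not overlapping for T cells. Genes named outside that rule are marked, or complete a count of 5 or fewer. Promoters came from RefSeq (GRCr8), and probe coordinates were not used. Alternatives are given in the closing section. One result for a gene of the comparison lists is not reported here.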

Additional observations from a re-analysis of the deposited data

Results flagged for a closer look

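The Dusp6 log2 ratio of NMO-IgG over control IgG was 6.11 with T cells (ENMO over EAEcoI) and -2.99 without T cells (NMO-IgG only over control IgG only). It was singled out because the 2 ratios were past 2-fold in opposite directions. Each rests on 1 array per side, and the difference between them was not tested. ENMO and control IgG only, the higher array of each pair, both lay on slide 1, and EAEcoI and NMO-IgG only on slide 2.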

How the results depend on the processing

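Dusp6 stayed past 2-fold higher in ENMO than in both EAE arrays with every normalization, background correction, outlier and local trend setting. It was not tested among probes well above background on all 6 arrays, where the count was 0. Counts of genes past 2-fold lower in ENMO became 0 with normexp, no background correction, the stricter filter and a 3-fold threshold, and 1 with the local trend removed. Genes higher in ENMO became 2 at 1.5-fold or against EAEcoP alone. NMO-IgG only against control IgG only gave 1 lower gene with normexp, no background correction, local trend removed, deposited values or 3-fold, 4 at 1.5-fold and 0 with the stricter filter. It gave 1 higher gene with deposited values and 2 at 1.5-fold. EAEcoI against EAEcoP gave 0 higher genes with normexp or no background correction, and 1 lower with scaling to the 75th percentile, normexp, deposited values, the stricter filter or 3-fold. Control IgG only against healthy control gave 1 higher gene with normexp, no background correction, local trend removed, deposited values or 3-fold, 0 with the stricter filter, and 3 without a filter on dim probes (Egr2, Atf3 and Dusp6) or at 1.5-fold (Atf3, Dusp1 and Dusp6). Its lower genes became 0 with normexp, no background correction or the stricter filter, and 1 with the local trend removed or at 3-fold. With T cells, 1 gene (Atf3) was lower with normexp. Leaving out each array in turn gave 0 to 1 higher and 0 to 1 lower genes for T cells, and 0 to 213 probes called by limma (213 without ENMO, 3 without EAEcoI), with none of the genes tested here called in any setting. Shares of all probes past the same rules under these settings are not given, so the gene counts show only how the calls moved. The cause of these changes was not tested.

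The all T over all non-T ratio (log2) of Dusp1 turned from -0.77 to 0.16 with the deposited values, which move the median of all probes to 0.69, and to 0.065 within slide 2. Dusp1 in ENMO over EAE was 0.78, and -0.035 against EAEcoI alone. For Dusp6 the T cell ratio was 1.20 and ran from -0.39 (without ENMO) to 2.66 (without EAEcoI) when single arrays were left out, and it was -0.74 within slide 2. The within-slide values, and means of intensities in place of log2 values, were chosen after seeing the data. The mean over a gene's probes was not run separately, since each of the 10 genes had 1 probe. No paired analysis by replicate number was possible because each group had 1 array. With antibody as a block, which pairs the arrays with and without T cells, limma called 0 of 27268 probes for T cells (2852 at an unadjusted p under 0.05, lowest adjusted p 0.0893), and with slide as a block also 0 (2853, lowest adjusted p 0.22). The Dusp6 ratio was -0.02 with the slide block. Most of the 10 genes were near the detection floor, where the SD expected from spots for a difference between single spots was 1.64-fold.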

Other observations

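Outside the comparisons above, a pair of listed genes stood out after their values were seen. Cyr61, an immediate-early gene for a secreted matrix protein, had an NSI of 4258 in EAEcoI and 4004 in healthy control, both on slide 2. It was 84.5 in ENMO, 28.4 in EAEcoP, 94.6 with NMO-IgG only and 427 with control IgG only. Dusp8, a phosphatase for stress-activated MAPKs, had an NSI of 9048 in EAEcoP and 1136 to 3053 on the other arrays.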
